A study of Mus musculus with 6 samples.

Results

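The genes described here encode the proteasome, the protease that degrades ubiquitin-tagged proteins in every cell, in mouse small intestinal intraepithelial lymphocytes (IEL). Its members were the probe sets whose single annotated gene symbol begins with Psma, Psmb, Psmc, Psmd or Psme, which gave 53 of 12488 probe sets on the array and 42 of 8252 genes named by a single symbol. A probe set is the group of short DNA probes on an Affymetrix array that together measure one transcript. Of the 53, 48 were bright enough to be tested, meaning that at least 2 of 6 arrays exceeded the 40th percentile of all signals, and these stood for 41 genes. The other 5 were dim further probe sets of Psmb1, Psmb4, Psme1 and Psmc5 and the only one of Psmc4. The members fell into 19 probe sets of the constitutive core, 5 of the immunoproteasome, 25 of the regulatory particle and 2 for the alternative activators Psme3 and Psme4. The remaining 2 were Psmc3ip and Psme3ip1, which begin with the same letters but are named for proteins that interact with a subunit, so they were kept apart. Both probe sets of the activator subunit Psme2 carried a further symbol, which left Psme2 outside the members.

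The study sorted 3 IEL subsets from pools of 20 untreated C57BL/6 mice aged under 8 weeks and hybridised the RNA of each subset to 1 array. All 3 subsets came from the same pool, and a second experiment with a new pool of 20 mice on another occasion gave a second array per subset. The groups are TCRab CD8ab, the form of CD8 carried by conventional cytotoxic T cells, and the unconventional TCRab CD8aa and TCRgd CD8aa, each with n = 2 arrays, 1 per experiment. The labels' titles of the last write TCRgb where their source names write TCRgd, and the source names were followed. Each array measures a pool, so the spread between animals was not observed. In RNA from a sorted population, fewer cells of a type and less RNA per cell cannot be told apart.

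Proteasome subunits form 2 assemblies. The core particle is a barrel of rings of alpha subunits (Psma genes) and beta subunits (Psmb genes), and cuts proteins with the beta subunits Psmb5, Psmb6 and Psmb7. The regulatory particle caps the barrel, and its ATPase ring (Psmc genes) and other subunits (Psmd genes) recognise, unfold and feed in ubiquitin-tagged proteins. Lymphocytes, and other cells exposed to interferon gamma, replace the cutting subunits with the immunoproteasome forms Psmb8, Psmb9 and Psmb10, and use the activator cap of Psme1 and Psme2. These forms favour the peptides that MHC class I molecules present.

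The arrays differed in ways that bear on every value below. Beta-actin is measured at both ends of its transcript, and its signal at the 3′ end exceeded that at the 5′ end 1.41- to 1.76-fold on the first experiment's arrays but 40.4- to 52.2-fold on the second's. Cd8b1, the beta chain of CD8, marked the sorted subset as labelled, with log2 signals of 14.11 and 14.75 in TCRab CD8ab and 4.81 to 9.58 in the CD8aa subsets. The highest of these CD8aa values was that of TCRgd CD8aa in experiment 2. The same array stood apart in enterocyte markers, whose 19 probe sets summed to a signal of 35409 there and to 2058 to 3577 on the other 5 arrays, with 16 of 19 above the 40th percentile there and 8 to 14 elsewhere. Summed signals of T cell markers were 53967 to 67294 in experiment 1 and 27375 to 30405 in experiment 2. Summed B cell markers (4 probe sets) were 644 to 1231, myeloid markers (8) 304 to 1009, erythroid markers (2) 67 to 225 and stromal markers (6) 126 to 286. The part of these differences in the results below was not tested.

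**Figure D1:**
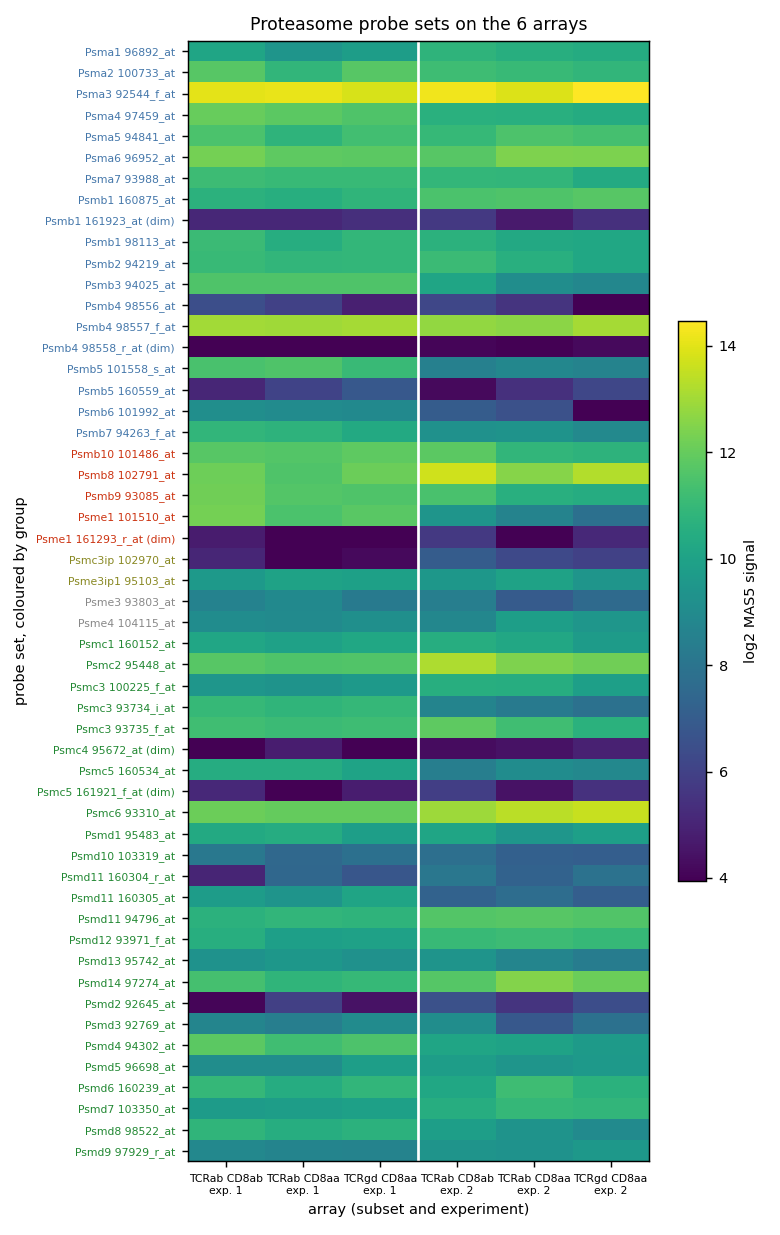
Log2 MAS5 signal of all 53 proteasome probe sets (rows, in groups marked by label colour: blue constitutive core, red immunoproteasome, green regulatory particle, grey alternative activators, olive interacting proteins) on the 6 arrays (columns, experiment 1 left of the white line). Rows marked dim are the 5 that were not tested; several rows, such as Psmb6 and Psmb3, change colour at the white line in all 3 subsets.

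None of the 48 tested probe sets differed between subsets at an adjusted p under 0.05 in any of the 3 comparisons. This held in limma's moderated test (Benjamini-Hochberg adjustment over all 8296 probe sets tested) both without and with the experiment as a block. Without the block the whole array gave 0 calls (0% of probe sets) in each comparison, and the adjusted p of every proteasome probe set was 1. At an unadjusted p under 0.05 that fit had 0, 2 and 0 of the 48 in TCRab CD8aa against TCRab CD8ab, TCRgd CD8aa against TCRab CD8ab and TCRgd CD8aa against TCRab CD8aa, beside 2.25%, 2.03% and 0.41% of all probe sets. With the block, which takes out the difference between experiments, 0.82%, 0.554% and 0.0241% of all probe sets were called in the same order, and again 0 of the 48. At an unadjusted p under 0.05 the blocked fit had 3, 5 and 0 of the 48, against 10.1%, 8.21% and 2.07% of all probe sets. The standard errors (SE) given below are those of the blocked fit, with a median of 0.331 log2 units over the members. Differences several times that size also went uncalled. In TCRgd CD8aa against TCRab CD8ab these included −1.92 ± 0.70 in 1 Psmb4 probe set and 1.90 ± 0.67 in 1 Psmb5 probe set. Both were dim, and reached the level for testing (a signal of 56.4) mainly in the subset where they were higher. In the other subset their signals were 29.5 and 13.6 (Psmb4) and 33.3 and 18.4 (Psmb5). Their size may thus partly reflect the filter. A brighter Psme1 probe set had −1.05 ± 0.36 in the same comparison and was not called either. An absent call therefore does not show that a difference was absent.

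Immunoproteasome signals leaned one way in the values. In TCRab CD8aa all 4 tested probe sets lay below TCRab CD8ab within both experiments, and in TCRgd CD8aa 3 of 4 did. Over all probe sets tested, 30.1% and 28.7% were lower in both experiments in these comparisons. The comparisons share the TCRab CD8ab arrays and so are not independent of each other.

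Psmb8, the cutting subunit that replaces Psmb5, had log2 signals of 12.13 and 13.70 in TCRab CD8ab (experiments 1 and 2), 11.56 and 12.57 in TCRab CD8aa, and 12.10 and 13.26 in TCRgd CD8aa. TCRab CD8aa was the lowest of the subsets in both experiments, but the signals of the subsets overlapped because those of experiment 2 were higher throughout. The difference of TCRab CD8aa from TCRab CD8ab was −0.85 ± 0.29 (SE, n = 2), with a 95% interval of −1.51 to −0.19 (limma adjusted p = 0.384 with the block). TCRgd CD8aa differed from TCRab CD8ab by −0.23 ± 0.29 (−0.89 to 0.42) and from TCRab CD8aa by 0.62 ± 0.29 (−0.04 to 1.27).

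Psmb9, which replaces Psmb6, had 12.19 and 11.43 in TCRab CD8ab, 11.67 and 10.57 in TCRab CD8aa, and 11.59 and 10.44 in TCRgd CD8aa. Both CD8aa subsets were lower than TCRab CD8ab in each experiment and close to each other, though the groups' arrays overlapped across experiments. The differences from TCRab CD8ab were −0.69 ± 0.29 in TCRab CD8aa (−1.33 to −0.05, limma adjusted p = 0.464 with the block) and −0.79 ± 0.29 in TCRgd CD8aa (−1.44 to −0.15, 0.478), and −0.11 ± 0.29 between the CD8aa subsets (SE, n = 2).

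Psmb10, which replaces Psmb7, had 11.72 and 11.83 in TCRab CD8ab, 11.67 and 10.86 in TCRab CD8aa, and 11.84 and 10.75 in TCRgd CD8aa. The subsets lay within 0.17 of each other in experiment 1 (TCRab CD8aa to TCRgd CD8aa), and in experiment 2 the CD8aa subsets were at −0.97 and −1.09 from TCRab CD8ab. Over both experiments the differences from TCRab CD8ab were −0.51 ± 0.35 (−1.29 to 0.27) and −0.48 ± 0.35 (−1.26 to 0.30; SE, n = 2), with limma adjusted p of 0.663 and 0.759 with the block. In the blocked fit without TCRab CD8ab replicate 2 they became 0.02 and 0.05, so their size depended on this array. Within experiment 1 they were −0.05 and 0.12.

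Psme1, the alpha subunit of the PA28 activator, had 12.25 and 9.44 in TCRab CD8ab, 11.47 and 8.64 in TCRab CD8aa, and 11.77 and 7.81 in TCRgd CD8aa. TCRab CD8ab was the highest in both experiments, while the order of the CD8aa subsets changed between them. The differences from TCRab CD8ab were −0.79 ± 0.36 in TCRab CD8aa (−1.61 to 0.03, limma adjusted p = 0.518 with the block) and −1.05 ± 0.36 in TCRgd CD8aa (−1.87 to −0.24, 0.443; SE, n = 2). In TCRgd CD8aa the within-experiment differences were −0.47 and −1.63, the larger on the array with raised enterocyte markers. A second, dim Psme1 probe set was at the floor (the 20th percentile of all signals, log2 3.94) on 3 arrays and was not tested.

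**Figure D2:**
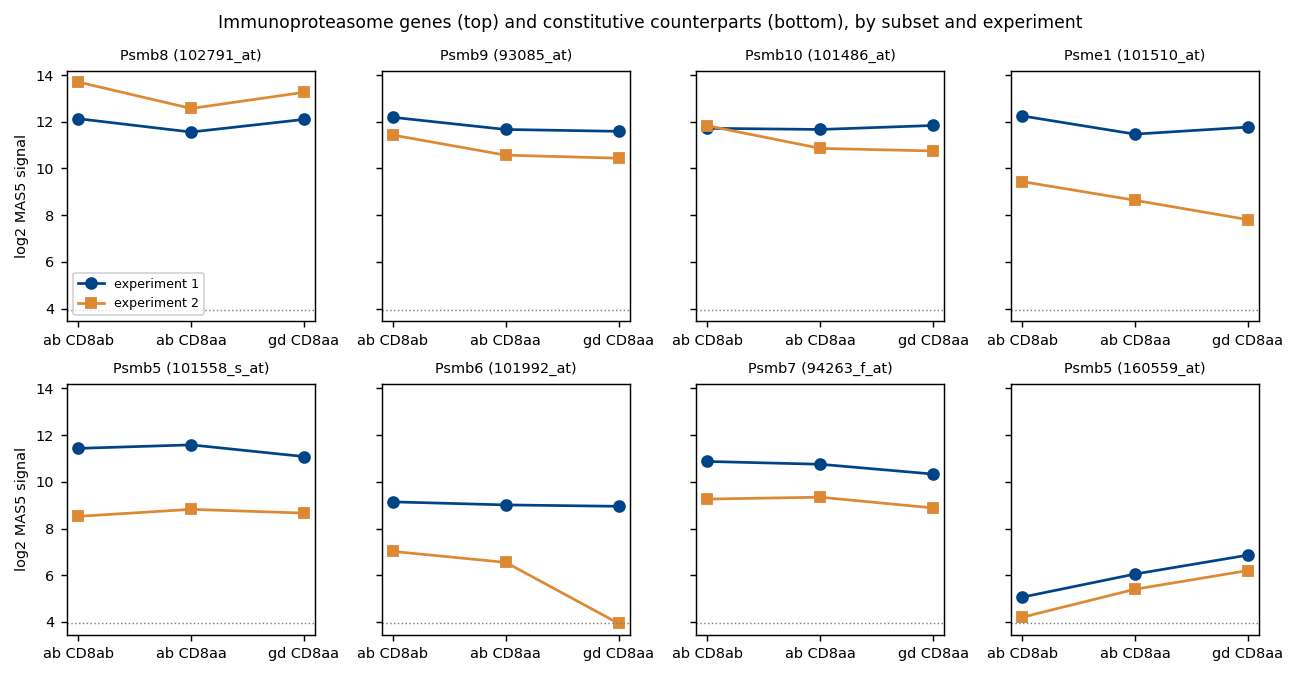
Log2 MAS5 signal (vertical axis) of the 4 tested immunoproteasome probe sets (top row) and of the constitutive counterparts Psmb5, Psmb6 and Psmb7 (bottom row, Psmb5 with 2 probe sets) in TCRab CD8ab, TCRab CD8aa and TCRgd CD8aa; each point is 1 array, lines only join arrays of 1 experiment, and the dotted line is the floor at log2 3.94. TCRab CD8aa lies below TCRab CD8ab in both experiments in each panel of the top row, though for Psmb10 in experiment 1 only from 11.72 to 11.67.

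The list median of the 4 immunoproteasome probe sets was −0.74 in TCRab CD8aa against TCRab CD8ab (−0.55 in experiment 1 and −0.91 in experiment 2), beside −0.08 over all probe sets tested. In TCRgd CD8aa against TCRab CD8ab it was −0.64 (−0.25 and −1.04) beside −0.06 over all. Between the CD8aa subsets it was −0.04 (0.24 and −0.12) beside 0.00 (values of −0.038 and 0.002). In experiment 2 the median of all probe sets was itself −0.20 and −0.17 in the first 2 comparisons, and quantile normalization, which changed it to 0.00 (0.001) and −0.08, left the immunoproteasome medians of that experiment at −0.95 and −0.96. These medians rest on single arrays. In the blocked fit without TCRab CD8ab replicate 2 they were −0.50 and −0.30 for TCRab CD8aa and TCRgd CD8aa against TCRab CD8ab, and without TCRab CD8ab replicate 1 −1.06 and −0.99 (values of −1.064 and −0.995). Without TCRgd CD8aa replicate 2, where enterocyte markers were raised, the median of TCRgd CD8aa against TCRab CD8ab was −0.33 (−0.325) and that between the CD8aa subsets 0.36. Without TCRgd CD8aa replicate 1 the last was −0.28.

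Of the constitutive cutting subunits, Psmb6 had its subsets in the same order as its replacement Psmb9 in both experiments, and Psmb5 and Psmb7 did not share the order of theirs. The brighter Psmb5 probe set had 11.43 and 8.52 in TCRab CD8ab, 11.58 and 8.82 in TCRab CD8aa, and 11.08 and 8.66 in TCRgd CD8aa, so no subset was lowest in both experiments. Its differences from TCRab CD8ab were 0.23 ± 0.30 and −0.11 ± 0.30 (SE, n = 2; limma adjusted p of 0.842 and 0.949 with the block). A second, dim Psmb5 probe set went from 5.06 and 4.20 in TCRab CD8ab to 6.05 and 5.40 in TCRab CD8aa and 6.86 and 6.2 in TCRgd CD8aa. Its subsets had the same order in both experiments and did not overlap, and its difference of 1.90 ± 0.67 between TCRgd CD8aa and TCRab CD8ab (0.39 to 3.41, limma adjusted p = 0.46 with the block) was not seen in the first probe set, so the pair disagreed.

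Psmb6 had 9.14 and 7.02 in TCRab CD8ab, 9.01 and 6.55 in TCRab CD8aa, and 8.95 and 3.94 in TCRgd CD8aa, the last a signal of 15.4 just above the floor of 15.3. All 3 subsets were close in experiment 1, and the low value lay on the array with raised enterocyte markers. The difference of TCRgd CD8aa from TCRab CD8ab was −1.63 ± 0.67 (SE, n = 2; limma adjusted p = 0.553 with the block). Without TCRgd CD8aa replicate 1 that difference was −2.99 (adjusted p = 0.00877 with the block) and the difference of Psmb6 from TCRab CD8aa −2.69 (adjusted p = 0.0466), both resting on the array of experiment 2 alone. Without TCRgd CD8aa replicate 2 they were −0.27 and 0.04, with adjusted p of 1 for both.

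Psmb7 had 10.87 and 9.26 in TCRab CD8ab, 10.75 and 9.34 in TCRab CD8aa, and 10.33 and 8.88 in TCRgd CD8aa. TCRgd CD8aa was the lowest in both experiments, by −0.46 ± 0.30 from TCRab CD8ab and −0.44 ± 0.30 from TCRab CD8aa (SE, n = 2; limma adjusted p of 0.722 and 1 with the block).

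Setting each immunoproteasome subunit against the one it replaces gives the unequal part of their differences within an array pair. In TCRab CD8aa against TCRab CD8ab, the difference of Psmb8 minus that of the brighter Psmb5 probe set was −0.72 in experiment 1 and −1.44 in experiment 2. The same quantity was −0.39 and −0.38 for Psmb9 over Psmb6, and 0.07 and −1.05 for Psmb10 over Psmb7. In TCRgd CD8aa against TCRab CD8ab the signs of all 3 pairs changed between experiments, with 0.33 and −0.58, −0.42 and 2.09, and 0.66 and −0.70, the second pair with Psmb6 just above the floor on 1 array. The change of sign for Psmb8 holds for the brighter Psmb5 probe set only. The dim one had 1.80 and 2.00 in this comparison, above Psmb8 (−0.03 and −0.44) in both experiments. These are descriptions of 2 experiments with no test.

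The promoters of the immunoproteasome genes are shown because interferon gamma is known to induce these genes, with that of Psmb5 for contrast. Each is the 250 bases before and 50 after the annotated start, from RefSeq (GRCm38.p6), written 5′ to 3′ on the gene's strand. Capitals mark matches, on either strand, to GAAA, any 2 bases, GAAA (letters that interferon regulatory factors bind) or TGACNNNGC (letters of the antioxidant response element bound by Nfe2l1, which drives proteasome genes when proteasomes are inhibited). The windows are chr17:34197945-34198244 (plus strand), chr17:34187281-34187580 (minus), chr14:55578244-55578543 (plus) and chr14:54617946-54618245 (minus).
Psmb8: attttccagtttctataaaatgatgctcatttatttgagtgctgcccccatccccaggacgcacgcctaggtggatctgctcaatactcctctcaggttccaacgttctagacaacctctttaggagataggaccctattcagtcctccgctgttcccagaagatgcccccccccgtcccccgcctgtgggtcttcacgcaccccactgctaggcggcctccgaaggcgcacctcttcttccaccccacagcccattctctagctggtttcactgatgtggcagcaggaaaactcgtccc
Psmb9: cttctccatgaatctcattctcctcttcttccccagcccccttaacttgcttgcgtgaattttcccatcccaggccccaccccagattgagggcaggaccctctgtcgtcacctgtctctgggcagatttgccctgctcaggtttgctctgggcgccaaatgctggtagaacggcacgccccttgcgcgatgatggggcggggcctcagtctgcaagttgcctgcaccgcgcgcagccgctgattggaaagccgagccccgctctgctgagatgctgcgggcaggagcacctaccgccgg
Psme1: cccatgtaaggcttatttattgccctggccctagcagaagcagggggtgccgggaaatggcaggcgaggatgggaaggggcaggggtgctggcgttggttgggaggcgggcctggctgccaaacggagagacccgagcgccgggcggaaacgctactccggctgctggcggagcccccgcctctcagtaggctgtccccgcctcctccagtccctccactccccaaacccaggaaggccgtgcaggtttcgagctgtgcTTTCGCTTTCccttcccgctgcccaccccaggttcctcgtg
Psmb5: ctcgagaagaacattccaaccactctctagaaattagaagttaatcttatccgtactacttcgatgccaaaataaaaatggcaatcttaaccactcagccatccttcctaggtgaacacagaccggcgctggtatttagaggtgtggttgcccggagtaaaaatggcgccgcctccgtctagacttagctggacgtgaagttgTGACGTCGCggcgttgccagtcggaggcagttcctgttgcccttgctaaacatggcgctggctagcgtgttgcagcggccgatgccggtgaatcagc

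The Psme1 window held TTTCGCTTTC, the interferon regulatory factor letters on the opposite strand, beginning at position 9 from the start. TGACGTCGC in the Psmb5 window began at position −47. No match overlapped one to another motif in these windows. The windows of Psmb8, Psmb9 and Psmb10, the last not shown, held neither, which says only that these letters are not in these windows. Of 39 promoter entries for 36 member genes, 4 held the first of these motifs (10.3%) and 6 TGACNNNGC (15.4%), beside 3.44% and 12.4% of all 32851 entries. A match is not a measured binding site.

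The Psmb9 window shares 275 bases with that of Tap1, which encodes a subunit of the peptide transporter that delivers proteasome products to MHC class I and is read in the opposite direction. Tap1 had 11.68 and 11.56 in TCRab CD8ab, 10.99 and 10.95 in TCRab CD8aa, and 11.24 and 10.81 in TCRgd CD8aa. As with Psmb9, both CD8aa subsets were lower in both experiments, by −0.65 ± 0.29 and −0.60 ± 0.29 (SE, n = 2), and neither passed (limma adjusted p of 0.491 and 0.648 with the block).

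Probe sets of the constitutive core had differences of both signs, from −0.57 to 1.09 in TCRab CD8aa and from −1.92 to 1.90 in TCRgd CD8aa against TCRab CD8ab. Over its 17 tested probe sets the median was −0.10 (−0.105) in TCRab CD8aa against TCRab CD8ab, with 9 lower and 2 higher in both experiments. In TCRgd CD8aa against TCRab CD8ab it was −0.32, with 9 lower and 3 higher, and between the CD8aa subsets −0.07, with 7 lower and 3 higher. As shares, 52.9%, 52.9% and 41.2% were lower in both experiments, beside 30.1%, 28.7% and 24.8% of all probe sets tested. Higher in both were 11.8%, 17.6% and 17.6%, beside 22.8%, 22.8% and 23.9%. The medians over all probe sets tested were −0.08, −0.06 and 0.00. Psmb1, a non-cutting beta subunit, gave 1 of the 5 smallest p in the first comparison through one probe set, with 11.13 and 10.69 in TCRab CD8ab against 10.52 and 10.30 in TCRab CD8aa. That difference was −0.50 ± 0.29 (SE, n = 2; limma adjusted p = 0.611 with the block), whereas another Psmb1 probe set had −0.04 ± 0.28.

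Psmb4, a further non-cutting beta subunit, also had probe sets that disagreed. The bright one had 12.99 and 12.77 in TCRab CD8ab, 12.96 and 12.64 in TCRab CD8aa, and 13.04 and 13.05 in TCRgd CD8aa. The dim one had 6.45 and 6.2, 5.99 and 5.51, and 4.88 and 3.94, the last at the floor. In the dim probe set TCRgd CD8aa lay below TCRab CD8ab by −1.92 ± 0.70 (−3.50 to −0.33, limma adjusted p = 0.498 with the block), and in the bright one the difference was 0.17 ± 0.28 (SE, n = 2). The alpha subunits lay between −0.51 (Psma2) and 0.17 (Psma6) in TCRab CD8aa against TCRab CD8ab, and between −0.36 (Psma1) and 0.10 (Psma6) in TCRgd CD8aa against TCRab CD8ab.

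In the regulatory particle the median over 23 tested probe sets was −0.19 in TCRab CD8aa against TCRab CD8ab, with 11 lower and 2 higher in both experiments. It was −0.25 (−0.255) in TCRgd CD8aa against TCRab CD8ab, with 9 lower and 1 higher, and −0.10 between the CD8aa subsets, with 3 lower and 3 higher. As shares, 47.8%, 39.1% and 13% were lower in both experiments, beside 30.1%, 28.7% and 24.8% of all probe sets tested. Higher in both were 8.7%, 4.35% and 13%, beside 22.8%, 22.8% and 23.9%. Psmd3, a structural subunit of the lid, had 8.75 and 9.11 in TCRab CD8ab, 8.44 and 6.86 in TCRab CD8aa, and 9.02 and 7.85 in TCRgd CD8aa. The value of TCRab CD8aa in experiment 2 was the low one, and the difference from TCRab CD8ab was −1.28 ± 0.49 (−2.38 to −0.18, limma adjusted p = 0.43 with the block). Leaving out TCRab CD8ab replicate 1 gave −2.15 with an adjusted p of 0.0448, a call that rests on the array pair of experiment 2.

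The ATPases had differences of both signs. In TCRab CD8aa against TCRab CD8ab the tested Psmc probe sets lay between −0.46 (Psmc2) and 0.30 (Psmc5), and in TCRgd CD8aa against TCRab CD8ab between −0.60 (1 probe set of Psmc3) and 0.29 (Psmc6). Psmd5, Psmd9 and Psmd10 assist the assembly of the ATPase ring rather than staying in the finished particle. Psmd10, gankyrin, had 8.17 and 7.78 in TCRab CD8ab, 7.5 and 7.15 in TCRab CD8aa, and 7.83 and 7.10 in TCRgd CD8aa, with both CD8aa subsets lower in both experiments (−0.65 and −0.51, limma adjusted p of 0.634 and 0.788 with the block). The alternative activators Psme3 and Psme4 had −0.60 and 0.45 in TCRab CD8aa against TCRab CD8ab, and −0.61 and 0.37 in TCRgd CD8aa. None of these was called (limma adjusted p of 0.714, 0.715, 0.778 and 0.82 with the block). In TCRab CD8aa both signs changed between experiments, with 0.30 and −1.49 for Psme3 and −0.09 and 1.00 for Psme4.

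Counted over all 48 probe sets, 25 (52.1%) were lower and 5 (10.4%) higher in both experiments in TCRab CD8aa against TCRab CD8ab, beside 30.1% and 22.8% of all probe sets tested. In TCRgd CD8aa against TCRab CD8ab the counts were 23 (47.9%) and 5 (10.4%), beside 28.7% and 22.8%. Between the CD8aa subsets 12 (25%) were lower and 7 (14.6%) higher, beside 24.8% and 23.9%. Under quantile normalization 26, 22 and 14 of the 48 were lower in both experiments, beside 26.3%, 27.5% and 28.7% of all. In experiment 1 alone, which leaves out the array with raised enterocyte markers, 36 of 48 were lower in TCRab CD8aa and 32 of 48 in TCRgd CD8aa than in TCRab CD8ab, beside 47.9% and 47.2% of all. In experiment 2 alone it was 32 and 34 of 48, beside 58.9% and 58.1%, and between the CD8aa subsets 18 and 35 of 48 in experiments 1 and 2, beside 48.9% and 50.8%. Both arrays of TCRab CD8aa lay below both of TCRab CD8ab in 7 of 48 and above in 2, beside 12.8% and 10% of all. For TCRgd CD8aa against TCRab CD8ab these counts were 6 and 3, beside 10.4% and 9.38%, and between the CD8aa subsets 2 and 3, beside 6.64% and 7.76%. The shares carry no test, and probe sets of 1 gene and subunits measured on the same arrays are not independent.

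**Figure D3:**
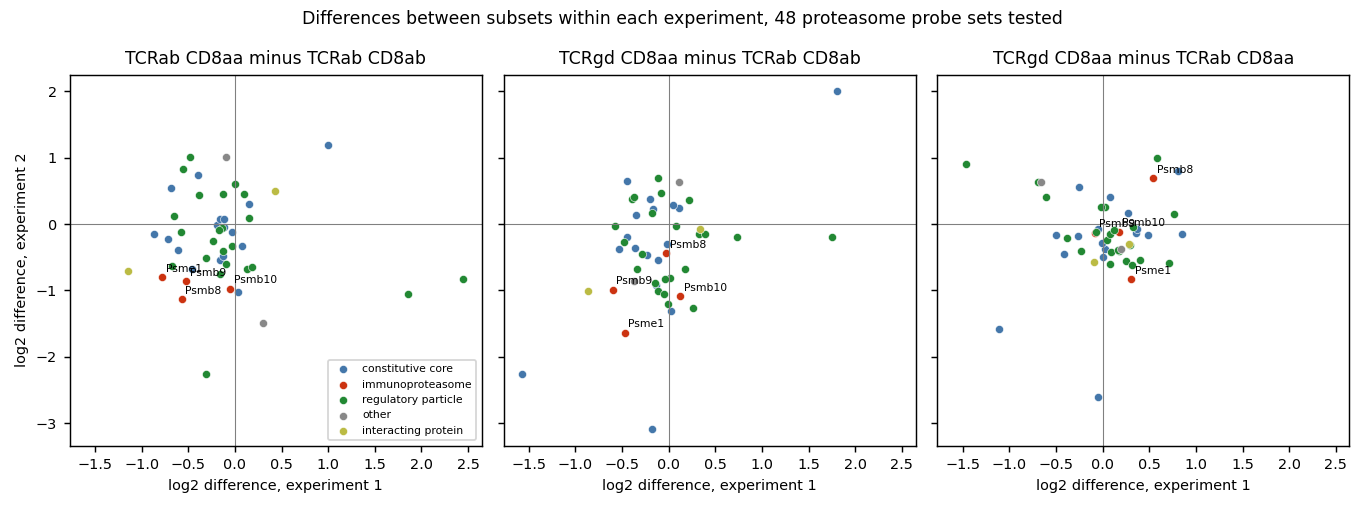
Log2 difference between subsets in experiment 1 (horizontal axis) and experiment 2 (vertical axis) for the 48 tested proteasome probe sets, 1 panel per comparison, with colours for the groups of subunits. In TCRab CD8aa minus TCRab CD8ab 25 points lie to the left of and below 0, among them the 4 immunoproteasome probe sets, and in TCRgd CD8aa minus TCRab CD8aa 12 do.

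The experiments gave calls where the subsets gave none. With the subset as a factor, limma called 23 of the 48 probe sets (47.9%) between experiments, 11 higher and 12 lower in experiment 2, beside 34.1% of all probe sets (13.7% higher and 20.3% lower). Without the intensity trend 15 were called, without the filter on dim probe sets 5, and without TCRab CD8aa replicate 1 or replicate 2 14 each. Calls over all probe sets were not counted in these alternatives, so whether the lower counts are particular to the proteasome is not known. The 4 immunoproteasome probe sets were divided. Psmb8 was higher in experiment 2 by 1.25 ± 0.24 (SE of 3 arrays each, limma adjusted p = 0.00406), and Psmb9 and Psme1 lower, by −1.001 ± 0.23 (0.0099) and −3.20 ± 0.30 (0.000197). Psmb10 had −0.60 ± 0.28 and was not called (0.132).

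Probe sets of all 3 constitutive cutting subunits were called lower in experiment 2. The brighter Psmb5 probe set had −2.69 ± 0.25 (limma adjusted p = 0.000197), Psmb6 −3.19 ± 0.55 (0.00245) and Psmb7 −1.49 ± 0.24 (0.00201), while the dim Psmb5 probe set had −0.72 ± 0.55 and was not called (0.337). Psmb3, a structural beta subunit, had 11.55 to 11.58 on the arrays of experiment 1 and 8.82 to 10.12 on those of experiment 2, a difference of −2.22 ± 0.30 (0.000856). Psmd4, the ubiquitin receptor of the regulatory particle, had 11.25 to 11.82 and 9.67 to 10.12, a difference of −1.61 ± 0.24 (0.00151). Other members were called higher, among them the ATPase Psmc6 with 11.98 to 12.11 and 12.91 to 13.60 (1.26 ± 0.25, 0.00487) and Psmd14, the enzyme that removes ubiquitin chains at the lid, with 10.82 to 11.38 and 11.70 to 12.52 (1.05 ± 0.29, 0.0222).

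Probe sets of the same gene moved in opposite directions between experiments. Of Psmc3, an ATPase, 1 probe set had −2.64 ± 0.27 (limma adjusted p = 0.000273), another 0.82 ± 0.28 (0.0477) and the third 0.07, which was not called. Of Psmd11, a lid subunit, 1 had −2.41 ± 0.33 (0.000913), another 0.89 ± 0.23 (0.0149) and the third 1.34 ± 0.57, which was not called (0.101). Of Psmb1, 1 had 0.90 ± 0.23 (0.0148) and another −0.44, which was not called. The blocked comparisons of subsets above use differences within an experiment. The beta-actin ratio moved with the experiment, and its part in these values was not tested.

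**Figure D4:**
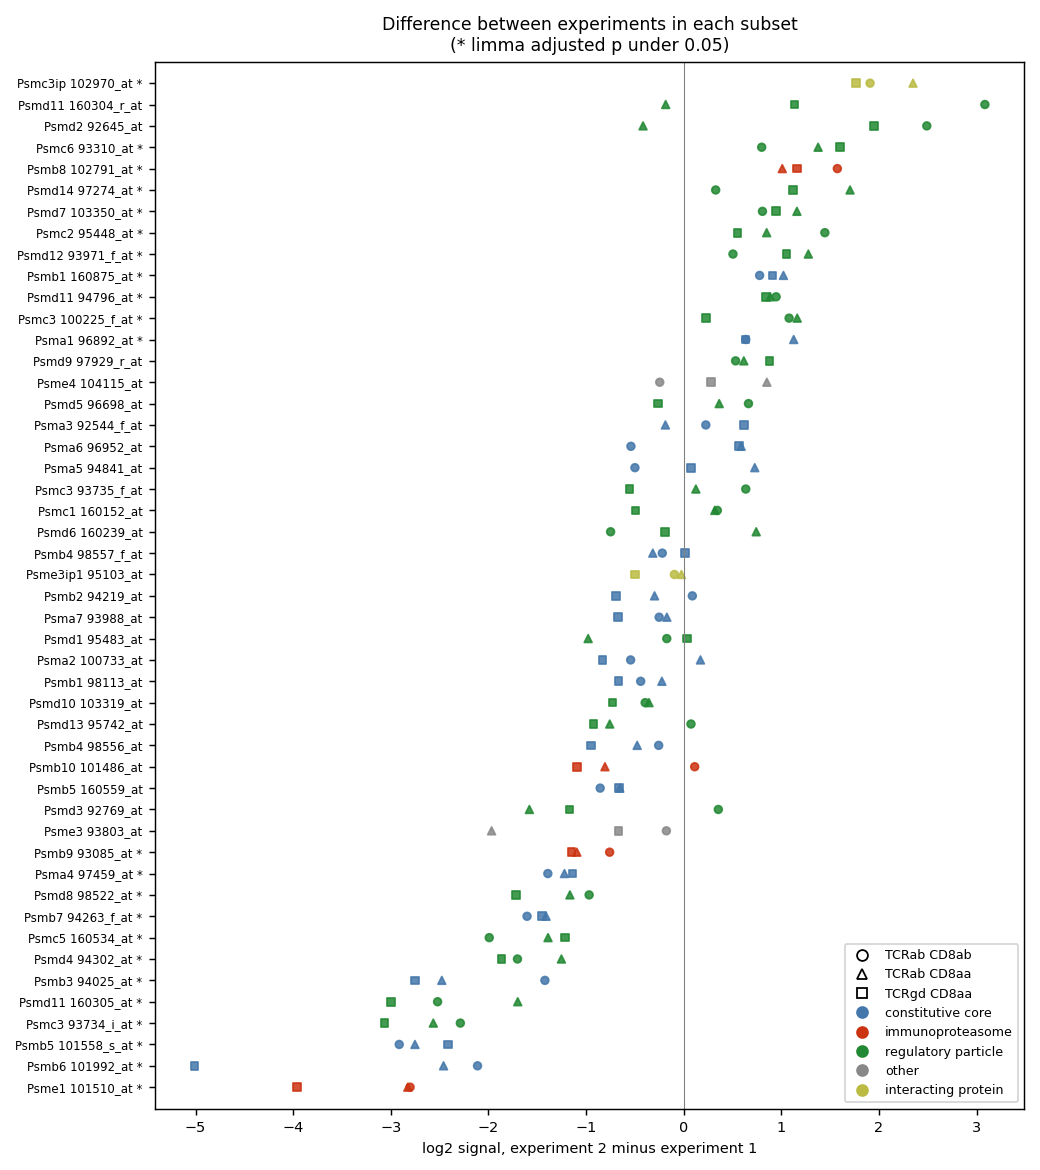
Log2 signal of experiment 2 minus experiment 1 (horizontal axis) for each tested proteasome probe set (rows, ordered by the mean), with 1 point per subset, shapes for subsets and colours for the groups of subunits; asterisks mark the 23 called by limma. The 3 subsets lie on the same side of 0 in all called rows, and Psmc3, Psmd11 and Psmb1 appear on both sides.

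Other genes around the proteasome, from lists chosen by function, gave 0 calls in either fit in any comparison. Among the assembly factors and partners (23 probe sets of 16 genes), 6 were lower and 9 higher in both experiments in TCRab CD8aa against TCRab CD8ab. Over all probe sets tested these shares were 30.1% and 22.8%. The median difference of the list was 0.23. Psmg1, a chaperone that pairs alpha subunits during core assembly, had 8.14 and 9.72 in TCRab CD8ab, 6.96 and 7.07 in TCRab CD8aa, and 7.37 and 7.85 in TCRgd CD8aa. TCRab CD8ab was above both CD8aa subsets on every array, with differences of −1.91 ± 0.46 and −1.32 ± 0.46 (SE, n = 2; limma adjusted p of 0.138 and 0.449 with the block). Ubqln2, with the next smallest p in TCRab CD8aa against TCRab CD8ab, went the other way. Its difference was 1.34 ± 0.53 (limma adjusted p = 0.445 with the block), with 0.24 in experiment 1 and 2.44 in experiment 2.

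Of the genes for peptide loading on MHC class I (15 probe sets of 8 genes), 5 were lower and 1 higher in both experiments in TCRab CD8aa against TCRab CD8ab, and 6 lower and 0 higher in TCRgd CD8aa. Over all probe sets tested, 30.1% and 28.7% were lower in both experiments in these comparisons, and 22.8% were higher in each. The median differences were −0.26 and −0.21 (values of −0.262 and −0.215), beside −0.08 and −0.06 over all probe sets tested. Of the genes that control the interferon response (9 probe sets of 8 genes), 5 were lower in both experiments in each of these comparisons. Higher in both were 0 and 1, and the medians were −0.34 and −0.22. Ifngr2 had −1.85 and −2.64 (limma adjusted p of 0.569 and 0.485 with the block), with both CD8aa subsets at the floor in experiment 2. Irf9 had −0.39 and −0.54 (0.699 and 0.691). Both genes were lower in both experiments in each comparison. Irf1, with larger p than these, had 0.01 and −0.14. In TCRgd CD8aa against TCRab CD8ab the smallest p was that of 1 Jak2 probe set with −1.38, while another Jak2 probe set had 0.07. Ifng, the cytokine that induces the immunoproteasome, had 9.25 and 11.53 in TCRab CD8ab, 7.22 and 9.17 in TCRab CD8aa, and 7.59 and 11.16 in TCRgd CD8aa. TCRab CD8aa had the lowest value in each experiment, by −2.20 ± 0.42 from TCRab CD8ab (limma adjusted p = 0.0561 with the block), and TCRgd CD8aa differed by −1.01 ± 0.42 (0.562). The tested genes for ubiquitin transfer (15 probe sets of 12 genes: 9 conjugating enzymes of the Ube2 family and the ligase components Cul1, Cul3 and Skp1) had medians of 0.03 (0.025) and −0.04 in these comparisons.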

How the data were processed

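Messenger RNA of 3 sorted IEL subsets was measured on 6 Affymetrix arrays, 2 per subset. The deposited values are MAS5 signal intensity, linear, as the authors made them per the labels (MAS5 is named in the submitters' processing notes, version not given). Intensity under the 20th percentile of all values (15.3, log2 3.94) was set to it and log2 taken. Probe sets were tested if 2 arrays exceeded the 40th percentile (56.4), which left 8296 of 12488, and 66 control probe sets were left out.

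R 4.3.3 with limma 3.58.1 gave the tests: lmFit on the 6 arrays together, then eBayes with a prior that follows intensity, and a threshold of 0.05 on the adjusted p. Each experiment sorted all subsets from 1 pool, so the replicate numbers pair the arrays. Deviations from the subset means correlated at 0.603, 0.619 and 0.713 between the 3 pairs of subsets, across 8296 probe sets. The main fit has no block, and the fit with the replicate block is an alternative to it. The SE, intervals and adjusted p given for named probe sets are from the blocked fit unless stated otherwise. Without the block, p-values measure the spread between the 2 experiments within the subsets, with a median residual standard deviation of 0.709. With the block, they measure what is left once the difference shared by the subsets is taken out (0.385). The platform annotation named 10833 probe sets with 1 symbol, 396 with several and 1193 with none, and probe positions were not used. Names ending in _f_at, _r_at, _s_at or _i_at (13 of 53 members) mark probe sets that may match similar transcripts or relaxed design rules. No 2 arrays shared over 45 equal values.

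The members and lists were chosen with earlier results of these data known. Values in every array were given for the immunoproteasome, Psmb5, Psmb6 and Psmb7, any member called between subsets and the 5 members per comparison with the smallest p in the blocked fit. Others were given as counts or ranges, and Psmd10, Psmb3, Psmd4, Psmc6, Psmd14, Psmc3ip, Psme3ip1, the brighter Psmb4 probe set and those called between experiments were chosen after their values were seen. From the other gene lists, only some of the probe sets with the smallest p in the blocked fit were given. Irf1, Psme3 and Psme4 were named outside these rules. The fits were tried on simulated data with the same noise in every probe set and changes in bright probe sets only. This does not match the noise of these arrays and says nothing about dim probe sets. A further promoter motif is not reported here. Alternatives were quantile normalization, other floors, an added constant of 16, no filter or one at the 60th percentile, no trend, only the 4 arrays compared, the block, and each array left out.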

Additional observations from a re-analysis of the deposited data

How the results depend on the processing

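Over up to 26 alternatives each, the 29 named combinations of member and comparison gave 749 values. Of these, 699 kept their direction and side of the threshold, 47 changed sign without a call (45 of them with an array left out), and 3 passed the threshold, all with the replicate block and 1 array left out. Without a block, leaving out any array called 0 probe sets.

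The replicate block called 68, 46 and 2 probe sets over the whole array in TCRab CD8aa against TCRab CD8ab, TCRgd CD8aa against TCRab CD8ab and TCRgd CD8aa against TCRab CD8aa. It called 72, 50 and 1 with quantile normalization, 73, 46 and 2 with the constant of 16, 6, 3 and 1 without the trend, and 169, 50 and 2 on the 4 arrays compared. With 1 array left out the replicate block called 22 to 182, 30 to 193 and 1 to 114, of which 0 to 1 were proteasome probe sets in each comparison.

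The constitutive core median was −0.138 in TCRab CD8aa against TCRab CD8ab with quantile normalization, with or without the replicate block. Without the filter it was −0.159 in TCRgd CD8aa against TCRab CD8ab and 0.106 between the CD8aa subsets, with or without the block, since 2 dim probe sets enter. Between experiments 5 proteasome probe sets were called without the filter, 15 without the trend, and 14 to 25 with 1 array left out. The matching calls over all probe sets were not counted.

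With 1 array left out and no block, medians in the order of comparisons above ranged from −0.424 to 0.045, −0.664 to 0.07 and −0.186 to 0.249 for the core. They ranged from −1.076 to −0.125, −1.199 to −0.077 and −0.599 to 0.523 for the immunoproteasome, and from −0.355 to −0.03, −0.287 to −0.154 and −0.097 to 0.022 for the regulatory particle. With the replicate block they were −0.226 to −0.08, −0.43 to −0.218 and −0.178 to 0.1 for the core, −1.064 to −0.501, −0.995 to −0.302 and −0.28 to 0.357 for the immunoproteasome, and −0.424 to −0.063, −0.447 to −0.136 and −0.151 to 0.123 for the regulatory particle. Without the block these ranges also carry the difference between experiments. With 2 arrays a subset, precision is limited by their number.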

Other observations

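Psme2, the partner of Psme1 in the PA28 activator, has no probe set of its own in the annotation. The tested probe set that carries both Psme2 and Psme2b, which cannot be told apart on it, had log2 signals of 11.83 and 10.39 in TCRab CD8ab, 11.42 and 10.03 in TCRab CD8aa, and 11.52 and 9.88 in TCRgd CD8aa. TCRab CD8ab was the highest subset in both experiments, with differences of −0.38 ± 0.28 and −0.41 ± 0.28 that were not called (SE, n = 2; limma adjusted p of 0.695 and 0.751 with the replicate block and 1 without it). Its signal was lower in experiment 2 by −1.49 ± 0.23 (limma adjusted p = 0.00162), in the same direction as that of Psme1.

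Psmc3ip, a cofactor of meiotic recombination whose name follows its binding to Psmc3, had 5.08 and 6.99 in TCRab CD8ab, 3.94 and 6.28 in TCRab CD8aa, and 4.22 and 5.98 in TCRgd CD8aa, with 1 array at the floor. Both CD8aa subsets were lower in each experiment, by −0.93 and −0.94 on average, with limma adjusted p of 0.705 and 0.772 with the replicate block. Psme3ip1, named for its interaction with Psme3, had 9.6 and 9.5 in TCRab CD8ab, 10.02 and 10 in TCRab CD8aa, and 9.93 and 9.43 in TCRgd CD8aa. TCRab CD8aa was higher than TCRab CD8ab in both experiments without overlap, by 0.46 ± 0.31, and TCRgd CD8aa differed by 0.13 ± 0.31 with opposite signs in the experiments (SE, n = 2; limma adjusted p of 0.659 and 0.94 with the replicate block).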
